A study of Mus musculus with 12 samples.

Results

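The calcium and sodium channel genes described here are those whose symbols begin with Cacn, Scn, Ryr, Hcn, Trpc, Trpm or Trpv followed, outside the Cacn genes, by a digit. Their members are the regions in the authors' list of hypomethylated regions that were annotated to such a gene at an absolute distance of 5000 bp or less. There were 478 such regions at 49 genes, of 35439 listed regions at 12848 gene symbols, and all matched symbols were channel subunit genes. A region entered the list by its mutant and wild-type levels, so every level and difference given here describes regions chosen on that contrast and has no test of its own. Positions are given on mm10 as in the files.

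Whole-genome methylation sequencing had been carried out on lineage-negative (lin-) bone marrow progenitors, marrow cells depleted of those with markers of mature blood lineages, from BALB/c mice. The Dnmt1 mutant group, whose genotype the labels write as dnmt1-/-, had 6 libraries, and the wild-type control group had 6. The series' design text describes the mouse allele as a specific mutation modelled on hypomorphic missense alleles of fish, not as a null allele; no treatment or age is given, and the mutation is not tied to 1 tissue in the sources used here. Dnmt1 is the enzyme that copies methylation onto the new DNA strand after replication. Each genotype had 3 replicate numbers, each with 1 bisulfite and 1 enzymatic library, and the deposited values held 1 column per number, so n = 3 against 3. Whether the replicates are separate animals is not given, so the spread may be partly technical. The files held methylation levels with no read counts, so depth is unknown, and no expression, so neither the cell type nor the genotype could be checked against transcripts.

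Voltage-gated calcium and sodium channels open when the membrane depolarises. The pore is a single large protein, encoded by a Cacna1 or an Scn gene ending in a. Smaller auxiliary subunits (Cacna2d, Cacnb, some Cacng and the Scn genes ending in b) alter the gating of the pore and its number at the cell surface. Other Cacng products serve AMPA receptors. Ryanodine receptors (Ryr) release calcium from the endoplasmic or sarcoplasmic reticulum, Hcn genes encode the pacemaker channels opened by hyperpolarisation, and Trpc, Trpm and Trpv genes encode cation channels that respond to lipids, temperature and chemical ligands. Most of these genes are known for their roles in neurons, muscle or sensory cells rather than in blood progenitors. A level is the methylation of a region in percent, averaged over its CpGs.

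Member regions lay mostly inside genes, and for the 36 genes with a start in the RefSeq table only 5 lay over it, at Cacna1e, Cacna1s, Cacng2, Scn10a and Scn8a. The bases upstream of 3 of these starts are shown, since their CpGs lie at an annotated start. Cacna1e had the lowest and Scn8a the highest wild-type level of the 5, and Cacna1s lay between. Sequences are from RefSeq on GRCm38.p6, read 5′ to 3′ on the gene's strand, with each CG in capitals, and every printed base lies in a member region. The Cacna1e stretch is chr1:154725921-154726170 on the minus strand, the Cacna1s stretch chr1:136052561-136052810 on the plus strand, and the Scn8a stretch chr15:100936077-100936270 on the plus strand. The starts of Cacna1e and Scn8a lie inside the annotated span of the gene and not at its outer end. The Cacna1e start is at 154725920, while the span of that minus-strand gene reaches 154884785. The Scn8a start is at 100936271, in a span that begins at 100869863. Less far inside lie 2 starts of minus-strand genes that are not shown. These are Cacng2, at 78119280 in a span reaching 78120220, and Scn10a, at 119719032 in a span reaching 119719322. The printed Cacna1e and Scn8a stretches both end in the bases cag. Whether transcription begins at their inner starts, or these are edges of internal exons, was not tested. Those 2 stretches are thus not shown to be promoters.
Cacna1e: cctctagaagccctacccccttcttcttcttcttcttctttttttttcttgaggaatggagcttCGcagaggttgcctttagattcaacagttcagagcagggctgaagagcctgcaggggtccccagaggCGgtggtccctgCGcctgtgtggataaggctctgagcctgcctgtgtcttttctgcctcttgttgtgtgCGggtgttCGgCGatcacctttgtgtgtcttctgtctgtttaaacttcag
Cacna1s: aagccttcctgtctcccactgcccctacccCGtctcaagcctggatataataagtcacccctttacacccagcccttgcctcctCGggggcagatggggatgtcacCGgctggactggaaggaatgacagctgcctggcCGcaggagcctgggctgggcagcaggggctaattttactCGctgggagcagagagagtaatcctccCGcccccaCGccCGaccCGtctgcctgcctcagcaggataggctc
Scn8a: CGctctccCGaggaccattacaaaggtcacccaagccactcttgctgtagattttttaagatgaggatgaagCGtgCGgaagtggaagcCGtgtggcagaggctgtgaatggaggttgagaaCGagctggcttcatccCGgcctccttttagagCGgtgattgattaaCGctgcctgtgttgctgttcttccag
The motif searched was CG, which reads the same on both strands. Cacna1e had 6, Cacna1s 9 and Scn8a 9 CG in the 250 bases upstream of the start, where the median over 32851 RefSeq windows was 6 and 92.1% of windows held at least 1.

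The region over the inner Cacna1e start (13 CpGs) had low levels in the mutant, 9.75%, 7.50% and 5.33% in mutant replicates 1, 2 and 3, against 34.2%, 28.6% and 34.2% in the wild type. Cacna1e encodes the pore of R-type calcium channels. The region over the Cacna1s start (21 CpGs) kept more, at 43.4%, 45.4% and 55.7% in the mutant, against 78.8%, 74.3% and 76.9% in the wild type. Cacna1s encodes the pore of the calcium channel that serves as voltage sensor in skeletal muscle. At Scn8a, which encodes the sodium channel Nav1.6 of neurons, the 30 CpGs of the region had levels of 53.1%, 56.9% and 61.3% in the mutant, against 90.6%, 88.5% and 85.8% in the wild type. In all 3 regions the highest mutant replicate was below the lowest wild-type replicate. Cacng2, whose product stargazin traffics AMPA receptors, averaged 20.2% ± 7.37 in the mutant, against 55.5% ± 4.96 in wild type over its start, and Scn10a, a sensory neuron sodium channel gene, 59.96% ± 4.99 in the mutant, against 84.7% ± 0.34 in wild type (SD, n = 3 each).

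Methylation was lower in the mutant at each of the 478 regions, as the list requires, by amounts that varied widely. Mean levels were 44.6%, 46.8% and 48.9% in mutant replicates 1, 2 and 3, against 76.7%, 76.7% and 77.3% in the wild type. The mutant mean was 46.8% ± 2.14 and the wild-type mean 76.9% ± 0.386 (SD, n = 3 each), a difference of -30.1 percentage points, or -39.2% of the wild-type level. The groups did not overlap, and the mutant replicates were spread more widely than the wild-type replicates. The median region differed by -28.2 points (quartiles -34.3 and -24.1). Losses of at least 30 points were found in 201 regions, of at least 40 in 52 and of at least 50 in 12. In limma's test over all 107115 candidate regions, adjusted after Benjamini-Hochberg, all 478 were called lower (adjusted p under 0.05). Of all candidate regions 93.5% were called lower, and the list required a difference, so nothing is read from that count. The replicates of the genotypes did not overlap in any of the 478, as in 94.3% of candidate regions.

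**Figure D1:**
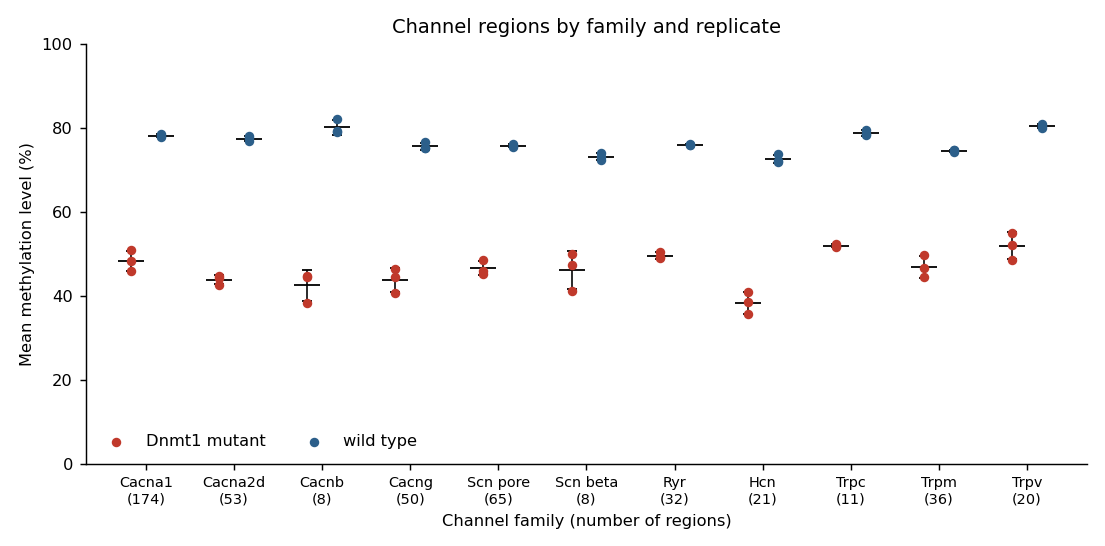
Mean methylation level (%) over the member regions of each channel family, with the number of regions in brackets. Points are replicates, Dnmt1 mutant left and wild type right, and bars are the mean and SD of 3 replicates; mutant means run from 38.3% (Hcn) to 52.0% (Trpc) and wild-type means from 72.6% (Hcn) to 80.5% (Trpv).

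Set beside all listed regions, the channel regions had similar wild-type levels and slightly larger losses. All 35439 listed regions averaged 48.4% ± 2.31 in the mutant, against 76.8% ± 0.334 in wild type (SD, n = 3 each), with a median difference of -26.1 points. Channel regions with at least 20 CpGs made up 22.6%, against 14.04% of all listed regions, and those with a metilene q under 0.05 made up 33.1%, against 23.3%. All listed regions include those far from any gene. Over the 26954 listed regions within 5000 bp of a gene these shares were 15.6% and 24.8%. The median length of the channel regions was 751 bp, against 720 bp over all listed regions, and their median density 18.8 CpGs per kb, against 17.8. The 352 regions at 67 potassium channel (Kcn) genes averaged 47.4% ± 2.33 in the mutant, against 76.9% ± 0.119 in wild type (SD, n = 3 each), with a median difference of -28.1 points, close to that of the calcium and sodium channel regions. These differences between sets were not tested. The replicates followed the order of the whole list: mutant replicate 1 was the lowest of the 3 in 267 channel regions (55.9%), against 56.4% of all listed regions.

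Pooled by role, the auxiliary subunits had a larger mean loss than the pore and TRP genes, but not within the sodium channel genes. The 119 regions of the Cacna2d, Cacnb, Cacng and Scn beta genes averaged 43.9% ± 2.25 in the mutant, against 76.6% ± 0.480 in wild type (SD, n = 3 each), a mean difference of -32.7 points. The 239 regions of the pore genes averaged 47.9% ± 2.22 in the mutant, against 77.5% ± 0.335 in wild type (SD, n = 3 each), a mean difference of -29.7 points. The 67 regions of TRP genes differed by -27.8 points on average. Of the auxiliary regions 60.5% were lower by 30 points or more, against 39.3% of the pore regions and 23.9% of the TRP regions. Among sodium channel genes the order was reversed, with a mean difference of -27.1 points over 8 beta subunit regions and -29.2 points over 65 pore regions. The 21 Hcn regions had a larger mean difference than any of these pooled roles, -34.2 points. Regions and not genes were averaged, and all Cacng genes were counted as auxiliary, those serving AMPA receptors included. Cacna2d2 gave 38 of the 119 auxiliary regions and Cacng2 22, with mean differences of -35.3 and -33.3 points. Cacna2d4 (15 regions) and Cacng4 (12) differed by -29.5 and -27.3 points, so the pooled order did not hold at every gene. These differences between roles were not tested.

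**Figure D2:**
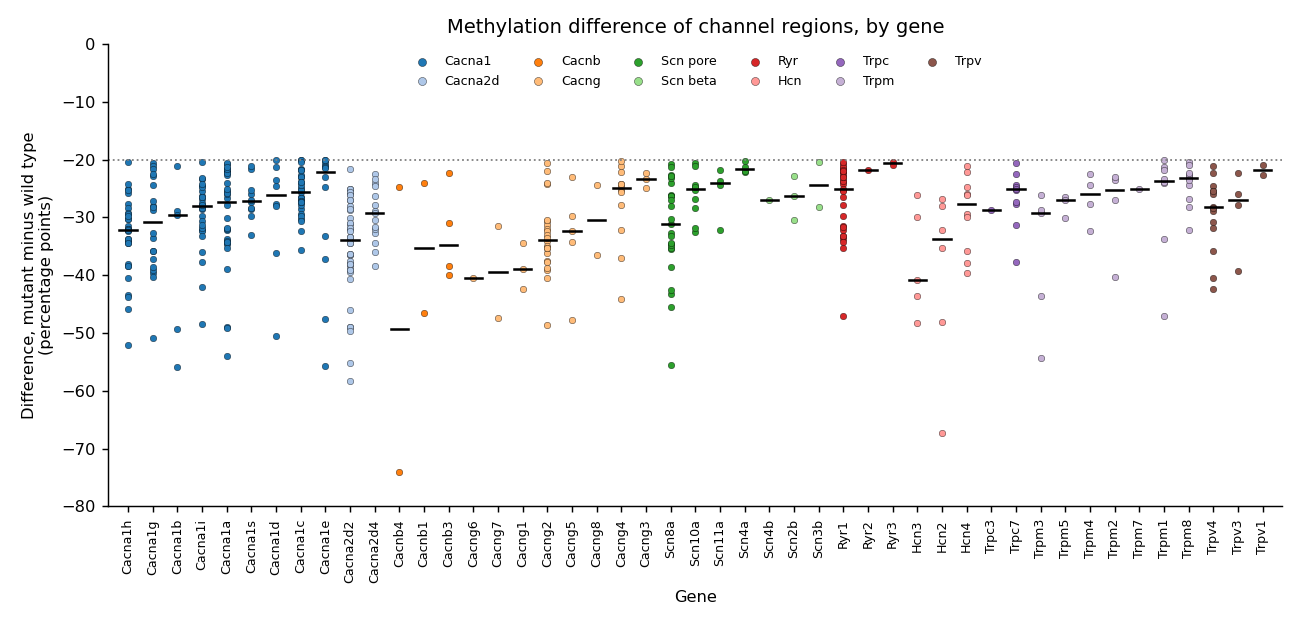
Difference in methylation, mutant minus wild type in percentage points, of channel regions by gene; genes not reported here are left out, which leaves 454 of the 478 regions. Each point is a region, bars are gene medians, colours are families and the dotted line marks the 20 points that the list required; single regions of Cacnb4 (-74.1) and Hcn2 (-67.3) lie lowest.

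Pore genes of voltage-gated calcium channels held 174 regions at 9 of 10 genes, with none at Cacna1f. They averaged 48.3% ± 2.41 in the mutant, against 78.2% ± 0.376 in wild type (SD, n = 3 each), with a median difference of -28.0 points. Cacna1a, which encodes the P/Q-type channel of presynaptic terminals, had the most regions of the family, 32. Its region with the largest loss (23 CpGs, chromosome 8, 84565970 to 84567427) had levels of 8.95%, 10.5% and 4.05% in the mutant, against 63.8%, 63.5% and 57.9% in the wild type. No mutant replicate kept more than 10.5% there. Cacna1h, a T-type channel gene opened by small depolarisations, had 31 regions in a gene of 62.0 kb, or 49.96 per 100 kb. Cacna1c, the L-type channel gene of heart, had 29 regions in 610.1 kb, or 4.75 per 100 kb, and none of them was lower by 40 points or more. By contrast Cacna1g, a further T-type gene, had 20 regions in 66.0 kb. Candidate regions numbered 36 at Cacna1h, 60 at Cacna1c and 28 at Cacna1g. Members up to 5000 bp outside a gene count in these densities, while the length is that of the span alone.

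The largest loss in a calcium pore gene lay in Cacna1b, the N-type channel gene of presynaptic terminals. Its region of 21 CpGs (chromosome 2, 24678812 to 24679210) had levels of 18.3%, 19.9% and 24.1% in the mutant, against 82.5%, 76.1% and 71.3% in the wild type, a difference of -55.9 points. It was the first of 3 adjoining regions. The region of 24 CpGs from 24679243 to 24679568 averaged 0.391% ± 0.31 in the mutant, the lowest of all 478, against 29.3% ± 6.56 in wild type (SD, n = 3 each). The next, 24679597 to 24679956, averaged 24.4% ± 2.71 in the mutant, against 73.7% ± 5.78 in wild type (SD, n = 3 each). The wild type thus had a dip between flanks of higher methylation, and the mutant levels were lower both in the dip and on the flanks. In Cacna1e the region of 22 CpGs at 154784984 to 154786024 on chromosome 1 differed by -55.6 points, at 9.41% ± 2.96 in the mutant, against 65.0% ± 5.24 in wild type (SD, n = 3 each).

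The alpha2delta genes, whose products raise the number of calcium channels at the surface, held 53 regions at 2 of 4 genes, and their median difference was -32.1 points. Cacna2d2 held 38 of the 53, the most of any channel gene, and Cacna2d4 15. Over the 38 Cacna2d2 regions mean levels were 41.1%, 42.0% and 42.1% in the mutant, against 77.3%, 76.2% and 77.4% in the wild type, with a loss of at least 40 points in 7 regions. The mutant replicates were as close together here as the wild-type replicates. The largest loss, on chromosome 9 from 107443549 to 107444319 (23 CpGs), had levels of 25.8%, 20.6% and 20.5% in the mutant, against 80.7%, 81.5% and 79.5% in the wild type; the authors' list also annotates it to Gm17118. Cacna2d1 and Cacna2d3 had no member region, although Cacna2d3 spans 817.8 kb.

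Cacnb genes, for the cytoplasmic beta subunits, held 8 regions at 3 of 4 genes, among them the largest loss of all channel regions. The Cacnb4 region of 12 CpGs (chromosome 2, 52619583 to 52619807) had levels of 7.18%, 17.1% and 4.27% in the mutant, against 86.2%, 85.8% and 78.7% in the wild type, a difference of -74.1 points. The list annotates that region to Bloc1s2-ps as well. The other Cacnb4 region, on the same chromosome at 52604456 to 52605007, was lower by less, at 59.7% ± 7.39 in the mutant, against 84.4% ± 1.83 in wild type (SD, n = 3 each). Cacnb3 had 4 regions, the most of its family, of which the one with 50 CpGs (chromosome 15, 98640513 to 98642512) had levels of 36.6%, 43.6% and 48.6% in the mutant, against 80.5%, 82.6% and 81.0% in the wild type. No Cacnb2 region was a member.

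The gamma subunit genes, some of which serve calcium channels of muscle and others AMPA receptors of neurons, all had a member, with 50 regions at 8 of 8 genes and a median difference of -32.2 points. Cacng2 had 22 of them. Its largest loss (24 CpGs, chromosome 15, 78081716 to 78082450) had levels of 18.1%, 11.4% and 23.9% in the mutant, against 62.7%, 61.2% and 75.3% in the wild type. Cacng1, the gamma subunit of skeletal muscle, had 3 regions that averaged 39.8% ± 5.46 in the mutant, against 78.3% ± 3.004 in wild type (SD, n = 3 each).

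**Figure D3:**
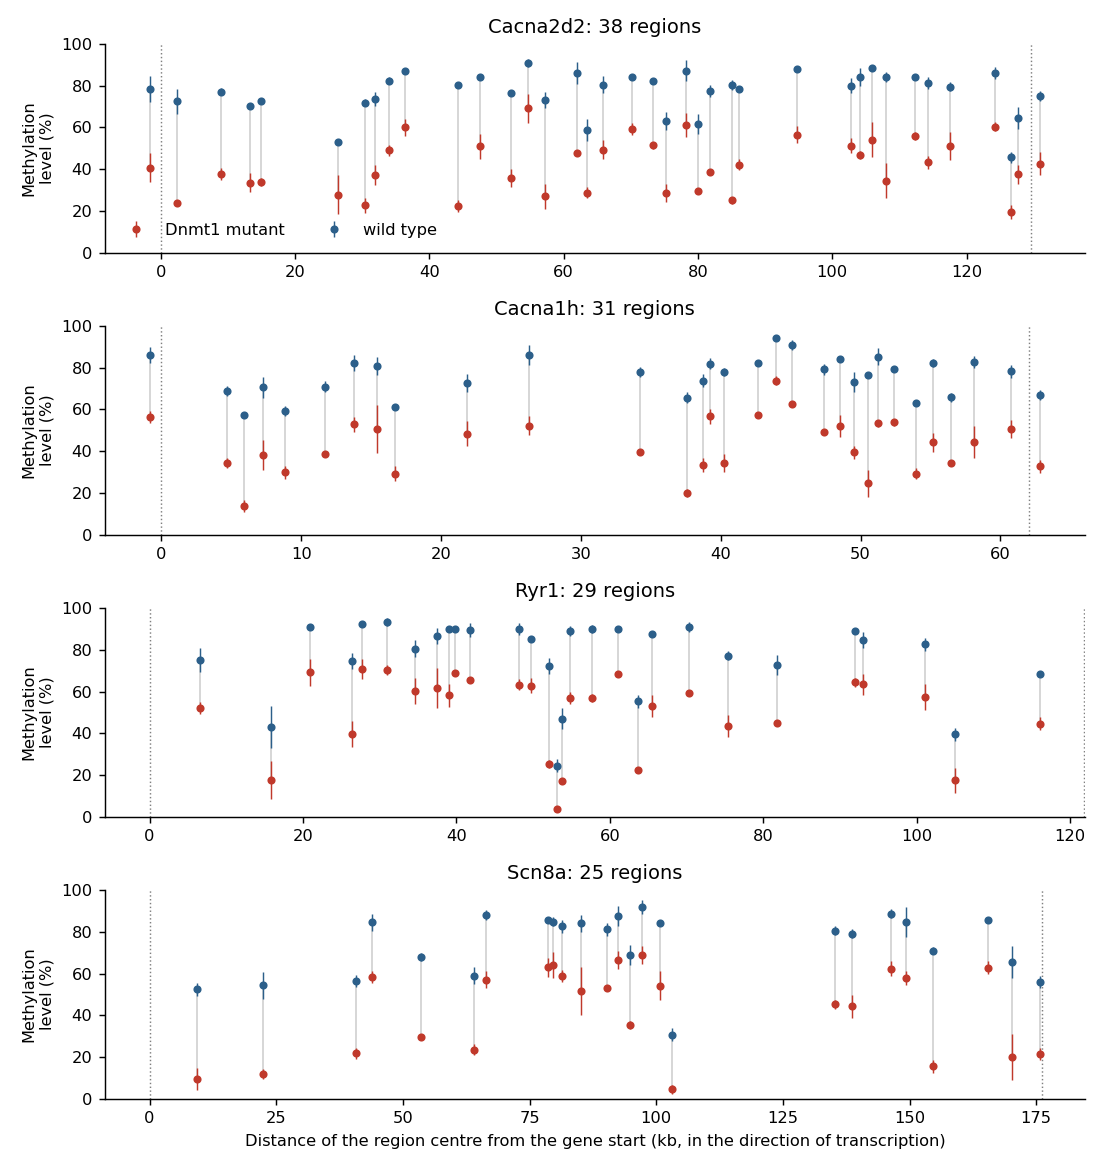
Methylation level (%) of the member regions along Cacna2d2, Cacna1h, Ryr1 and Scn8a against distance from the gene start in kb, in the direction of transcription. Points are means and bars SDs of 3 replicates (mutant red, wild type blue), grey lines join the same region, and dotted lines mark the gene's ends; members are spread along each gene and the mutant point is the lower in every region.

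Sodium channel pore genes held 65 regions at 5 of 10 genes and averaged 46.6% ± 1.75 in the mutant, against 75.8% ± 0.294 in wild type (SD, n = 3 each), with a median difference of -26.8 points. Scn8a had the most, 25. In Scn8a the largest loss was in a region of 13 CpGs (chromosome 15, 101024446 to 101024663), with 13.5%, 14.2% and 19.2% in the mutant, against 72.3%, 69.1% and 71.8% in the wild type. A longer Scn8a region of 57 CpGs (101039374 to 101040848) had 7.73%, 28.9% and 23.6% in the mutant, against 64.8%, 73.4% and 58.4% in the wild type. Mutant replicate 1 was far below the other mutant replicates there, and the mutant SD was 11.03 points. Scn4a, the sodium channel gene of skeletal muscle, had 4 regions, none lower by more than 22.1 points.

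The sodium channel pore genes without a member region all lie in 1 cluster on chromosome 2 (Scn3a, Scn2a, Scn1a, Scn9a and Scn7a, 1328 kb). The authors tabulated 13 candidate regions in the span of that cluster, and 2 of them were listed. Of the 13, only 3 lay within 5 kb of the genes themselves, 1 each at Scn3a (-7.52 points), Scn2a (-11.8) and Scn1a (-6.04). The others, among them both listed regions, lay between the genes. Regions that were never tabulated were not analysed here, so a low number of candidate regions does not show that methylation in the cluster was the same in both genotypes.

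The sodium channel beta subunits are single-pass proteins that also act in cell adhesion, and their genes held 8 regions. They averaged 46.1% ± 4.51 in the mutant, against 73.2% ± 0.842 in wild type (SD, n = 3 each). Scn2b, with 3 regions, had the most. The Scn2b region nearest the start, 376 bp away, had levels of 24.4%, 34.2% and 42.9% in the mutant, against 52.6%, 59.9% and 57.7% in the wild type.

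Ryanodine receptor genes differed widely in the number of regions. Ryr1, the calcium release channel of skeletal muscle, had 29 regions in 121.8 kb, Ryr2, that of heart, 1 in 553.8 kb, and Ryr3, expressed at lower level in many tissues, 2 in 586.1 kb. Candidate regions were distributed alike, with 53 at Ryr1, 7 at Ryr2 and 6 at Ryr3. The 29 Ryr1 regions averaged 50.01%, 49.9% and 51.0% in the mutant, against 77.2%, 77.1% and 77.7% in the wild type, and the mutant replicates lay close together. The middle of the gene held a stretch with lower wild-type levels. From 29071257 to 29071650 the level was 17.3% ± 0.82 in the mutant, against 47.0% ± 4.95 in wild type, and from 29071740 to 29072247 it was 3.55% ± 0.79 in the mutant, against 24.4% ± 3.07 in wild type, the lowest wild-type level of all members (SD, n = 3 each). Next to them, from 29072927 to 29073367, lay the largest loss of the gene, with 23.9%, 24.7% and 27.4% in the mutant, against 68.0%, 74.4% and 74.6% in the wild type. These regions are also annotated to Gm26604. The Ryr2 region (18 CpGs, chromosome 13, 12082623 to 12083983) had levels of 55.2%, 57.2% and 53.8% in the mutant, against 75.2%, 79.8% and 76.7% in the wild type. The 2 Ryr3 regions were lower by 21 and 20.3 points, near the limit of the list.

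Hcn genes had the lowest mutant mean of the 11 families, 38.3% ± 2.65, against 72.6% ± 0.968 in the wild type (SD, n = 3 each), over 21 regions. Hcn4, the main pacemaker channel gene of the sinoatrial node, had the most, 10. Hcn2 held the deepest loss of the family, in the middle of 3 neighbouring regions on chromosome 10. That middle region (16 CpGs, 79728905 to 79729093) had levels of 4.8%, 9.33% and 10.5% in the mutant, against 76.5%, 71.4% and 78.5% in the wild type. The region before it averaged 18.8% ± 3.18 in the mutant, against 51.0% ± 1.33 in wild type, and the region after it 9.56% ± 1.42 in the mutant, against 57.6% ± 6.62 in wild type (SD, n = 3 each). In the mutant all 3 were thus below a mean of 20%. Hcn3 had 5 member regions and held the one with the most CpGs, 60 (chromosome 3, 89149470 to 89151596), with 41.1%, 39.5% and 42.4% in the mutant, against 82.9%, 84.5% and 86.6% in the wild type.

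TRP genes had members at 12 of 21 genes. Trpc genes, for channels gated through phospholipase C, had 11 regions at 2 of 7 genes, 10 of them at Trpc7. The largest Trpc7 loss (chromosome 13, 56831367 to 56831852) had 24.7%, 32.4% and 33.6% in the mutant, against 71.2%, 61.0% and 71.4% in the wild type. Trpm genes had 36 regions at 7 of 8 genes, with 11 at Trpm8, the cold and menthol receptor gene. The largest Trpm loss was in Trpm3, a heat-activated channel gene of sensory neurons, in a region of 15 CpGs (chromosome 19, 22883415 to 22883948) with 33.1%, 30.4% and 32.9% in the mutant, against 84.8%, 86.2% and 88.1% in the wild type. Both groups were tight at that region, with gaps within a group of a few points. Trpm7, a channel with a kinase domain that most cells express, had 1 region, which averaged 11% ± 2.33 in the mutant, against 36.1% ± 2.45 in wild type (SD, n = 3 each) and lay downstream of the gene. Trpv genes had 20 regions at 3 of 6 genes, 14 of them at Trpv4, an osmotically and heat-activated channel gene. The largest Trpv4 loss (17 CpGs, chromosome 5, 114621976 to 114622530) had 26.7%, 35.1% and 35.6% in the mutant, against 71.4%, 78.8% and 74.3% in the wild type.

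Replicates differed most in the mutant. The region with the largest mutant SD, 15.3 points, was a Trpv4 region of 31 CpGs (114635960 to 114637179) with 43.0%, 66.3% and 71.7% in the mutant, against 88.4%, 92.0% and 92.8% in the wild type. Next came a Cacna1s region (136065530 to 136065817) with a mutant SD of 13.5 points and a Cacna1d region (chromosome 14, 30329349 to 30329631) with 12.2 points. The largest wild-type SD, 10.8 points, was in Cacna1c (chromosome 6, 118687028 to 118687671), where levels were 30.1%, 31.0% and 45.5% in the mutant, against 54.6%, 57.4% and 74.5% in the wild type. Ryr1 (29109220 to 29109596), with a wild-type SD of 10.05 points, and Cacna1a (84394263 to 84394965), with 8.52 points, followed. Over all members the median SD was 3.95 points in the mutant, against 2.63 points in wild type.

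**Figure D4:**
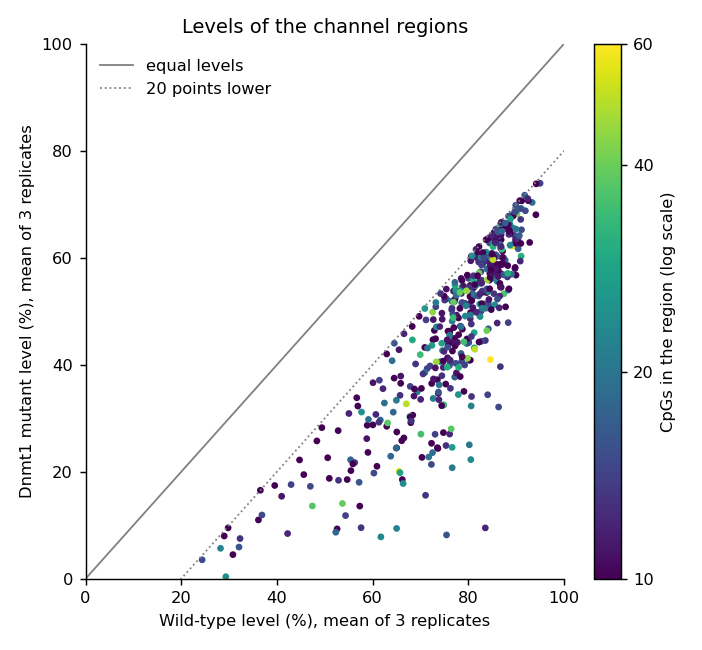
Mutant level against wild-type level (%, means of 3 replicates) of the 478 regions, coloured by the number of CpGs on a log scale. All points lie on or below the dotted line of 20 points that the list required, and 16 have a mutant mean under 10%.

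The mutant kept a smaller share of methylation where the wild type had less. The 21 regions with a wild-type mean under 50% averaged 12.9% ± 1.16 in the mutant, against 37.8% ± 1.71 in wild type, a relative change of -66.0%, and the 132 regions at 85% or more averaged 61.8% ± 2.40 in the mutant, against 87.9% ± 0.31 in wild type, a relative change of -29.7% (SD, n = 3 each). A region of low wild-type level must lose a large share to be lower by 20 points, so the list's limit sets part of this order. The mutant mean was under 10% in 16 regions and under 20% in 37. Apart from the Ryr1 region above, the lowest wild-type levels were at Cacna1g (22 CpGs, chromosome 11, 94475057 to 94476221), with 4.81%, 7.43% and 4.86% in the mutant, against 29.6%, 33.5% and 21.6% in the wild type, and at Ryr3 (112764421 to 112765091), with means of 8% in the mutant, against 29% in wild type. The highest were at Cacna1g (94423397 to 94423793), Cacna1h (25392313 to 25392492) and Trpm3 (22465035 to 22465261), with means of 73.9%, 73.9% and 68.1% in the mutant, against 95.0%, 94.2% and 94.2% in the wild type. An Scn8a region (100972805 to 100973315) had a mutant mean of 4.52%, the lowest after Cacna1b and Ryr1, against 30.8% in the wild type. Among the regions with the most CpGs, those not yet described were Cacna1s (55 CpGs, 136104440 to 136106624), Cacna1i (51, chromosome 15, 80371592 to 80373013) and Cacna1h (50, chromosome 17, 25371981 to 25374984, also annotated to Tpsg1). They averaged 62.2%, 59.7% and 32.7% in the mutant, against 89.3%, 85.2% and 67.1% in the wild type.

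By position, 457 members (95.6%) overlapped the gene they were annotated to, 10 lay upstream and 11 downstream. Of the 444 whose centre lay inside the RefSeq span, 68, 85, 93, 98 and 100 lay in 5 equal parts of the gene in the direction of transcription. Median differences in these parts were between -28.99 and -27.8 points. RefSeq starts were at hand for 36 of the 49 genes, with 327 members, of which 14 lay within 1 kb of a start at 14 genes. Starts inside the gene's span, such as those of Cacna1e and Scn8a, were counted there. Those 14 averaged 42.1% ± 3.61 in the mutant, against 70.4% ± 0.725 in wild type, and the 313 farther away 47.1% ± 2.06 in the mutant, against 77.1% ± 0.435 in wild type (SD, n = 3 each). Beside the regions over a start, the nearest were at Cacng6 (138 bp; mutant 24.5% ± 9.20, wild type 65.0% ± 5.22), Cacng3 (175 bp; mutant 11.9% ± 2.81, wild type 36.9% ± 5.09), Trpv3 (193 bp; mutant 53.1% ± 1.71, wild type 80.9% ± 5.397) and Cacng5 (234 bp; mutant 46.3% ± 2.96, wild type 76.1% ± 5.21; SD, n = 3 each). The remaining regions within 1 kb were at Trpv4, Scn2b, Cacna1c, Trpm1 and Cacng8, and were lower by between 20.1 and 36.5 points. Of the members 158 (33.1%) lay within 1 kb of another member, and 29 were also annotated to another gene.

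Among the 19 family genes without a member were Cacna1f, Cacna2d1, Cacna2d3, Cacnb2, Scn1a, Scn2a, Scn3a, Scn7a, Scn9a, Trpc1, Trpc2, Trpc4, Trpc5, Trpc6, Trpm6, Trpv2, Trpv5 and Trpv6. All 19 together were longer than those with one, with a median span of 146.7 kb, against 67.0 kb for the 49 genes with a member. Having no member does not mean that a gene was unchanged. At Trpc2 limma called 12 of 12 candidate regions lower (adjusted p under 0.05), at Trpv6 3 of 3 and at Trpv2 5 of 6, against 93.5% of all candidate regions. The 1 candidate region at Scn3a was not called. At Cacna1f, Cacna2d1, Scn7a, Scn9a, Trpc1, Trpc5, Trpc6 and Trpv5 no candidate region was tabulated. Of 21900 RefSeq protein-coding genes, 34.9% had a listed region within 5 kb of their span. That share was counted by position and not by the list's annotation, and gene length was not matched. By position Trpc2, which had no member, had 1 listed region. No region at a channel gene was in the authors' list of hypermethylated regions. By position alone, 912 candidate regions lay within 5 kb of the 68 genes, of which limma called 876 lower and 2 higher at an adjusted p under 0.05, where 93.5% of all candidate regions were called lower and 0.0485% higher. The 420 that were not listed averaged 64.3% ± 1.63 in the mutant, against 77.9% ± 0.448 in wild type (SD, n = 3 each). Of the 2 called higher, the one at the outer edge of the Cacng6 span (3423661 to 3423764) had 14.6%, 17% and 14.8% in the mutant, against 7.11%, 10.1% and 12.4% in the wild type. The one beyond the end of Ryr1 (29000918 to 29001528) had 15.4%, 15.8% and 8.97% in the mutant, against 0.931%, 10.3% and 1.03% in the wild type, and the groups overlapped.

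Few regions lay near the distance limit and more near the limit on the difference. The members farthest from their gene were at Cacng5 (4905 bp) and Cacng2 (3930 bp), lower by 47.7 and 30.6 points, and 20 listed rows of channel genes lay beyond 5000 bp. The smallest loss among members was 20 points, at Cacna1e (154704741 to 154705262), and 27 members were lower by 20 to 21 points, while 48 candidate regions at channel genes that were not listed were lower by 19 to 20 points and 8 by 20 points or more, down to -21.96 points.

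Genes that work with these channels had listed regions as well. Of 65 related genes (store-operated entry, IP3 receptors, calcium pumps and exchangers, ryanodine receptor partners, calmodulin and its kinases, sodium channel partners and other cation channels) 44 had 250 regions within 5000 bp, with a median difference of -27.7 points, against -26.1 points over all listed regions. For comparison, 34.9% of all RefSeq protein-coding genes had a listed region within 5 kb of their span, counted by position and not by the list's annotation, and gene length was not matched. By group, the largest losses were at Scnn1g (-55.5 points), a subunit gene of the epithelial sodium channel, Itpr1 (-51.7), an IP3 receptor gene, Jph2 (-49.6), whose product holds the sarcoplasmic reticulum to the plasma membrane, Atp2b2 (-46.1), a plasma membrane calcium pump gene, Camk4 (-41.8), a calmodulin-dependent kinase gene, and Ank3 (-34.8), whose product ankyrin G anchors sodium channels. Store-operated entry had the fewest, 2 regions at 2 of 5 genes, the larger at Orai1 with levels of 38.0%, 49.3% and 38.7% in the mutant, against 62.9%, 70.6% and 72.3% in the wild type. In that group Stim1, Stim2 and Orai2 had none.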

How the data were processed

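Levels of methylated DNA came from 12 libraries of paired-end 100 bp reads, per the labels' protocols, in 6 columns of 3 replicate numbers per genotype. Coordinates refer to mm10 (submitters' processing notes). No source used here gives the aligner, the caller or whether reads of both kits were merged. In the deposited files the authors give levels as a fraction, here multiplied to percent, for 107115 candidate regions, and lists with the number of CpGs, group means as a fraction, their difference as a score, and metilene q-values and adjusted p-values. Listed regions had at least 10 CpGs and 20 points of difference. Coordinates are the files' own: inside RefSeq windows the first CpG began 2 bases after the start in 396 of 396 cases, and the last began 1 base after the end in 350 of 350. All 2868 replicate values of members were, within 0.01, whole percents averaged over 1 CpG fewer than the listed number, so a printed CpG number exceeds by 1 the sites behind a level.

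Levels are replicate means and differences are mutant minus wild type. limma 3.58.1 in R 4.3.3 was fitted to every candidate region and adjusted after Benjamini-Hochberg. The fit was also run on simulated data in which only a small part of the regions was changed. In the deposited data most candidate regions were called lower, so that run does not bear on the counts given here. Tables were made with Python 3.11.15, pandas 2.3.3 and numpy 2.4.6, and figures with matplotlib 3.10.9. Gene spans, starts and sequences came from RefSeq tables of GRCm38.p6, which held starts for 53 of 68 family genes. Members and lists were chosen with earlier results of these data known. Named were, per family, the largest loss and the gene with the most regions, then regions with the most CpGs, nearest a start, with the largest SDs, with extreme levels or near the limits, and every Ryr and Hcn gene; the Cacna1c, Cacna1g and Cacna1h densities, the Scn cluster, Cacng1, Scn4a, Trpm7, the neighbours of named regions and candidate regions called higher were chosen after their values were seen. A few items under this rule are not reported. Alternatives are given with the closing results.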

Additional observations from a re-analysis of the deposited data

How the results depend on the processing

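The mean difference of -30.1 points over the channel regions moved by less than the mutant SD of 2.14 points with the authors' group means, CpG weights, gene means, regions of at least 20 CpGs or a 1000 bp limit. It was -35.3 points for members with a metilene q under 0.05 and -22.6 points over all 912 candidate regions at channel genes, which include those that were not listed. The 912 were taken by position within 5 kb of a gene's span and not by the list's annotation, so they do not hold exactly the members. At Trpm8 5 of them were listed, against 11 members, and at Cacna1a 38, against 32. Over the members, leaving out each replicate in turn gave -31.2 to -29.1 points. All 478 members stayed called lower under the logit scale, limma's trend and robust options, the replicate block and each left-out replicate. The list had required a difference, so nothing is read from that count. Of all 107115 candidate regions, 101916 were called lower on the logit scale and 102137 with the trend and robust options. Over all candidate regions 36881 were called lower when 20 points were also required, against 100125 without that, and 95623 to 100046 without 1 replicate. Candidate regions called higher numbered 52, and 30 to 63 without 1 replicate, 30 of them the count without wild-type replicate 1. Same-numbered replicates hardly deviated together (correlations 0.0372, 0.0049 and 0.05). Each mutant replicate correlated best with the wild-type replicate of its number, but wild-type replicate 2 correlated best with mutant replicate 1 (0.0117). With the replicate block 99903 candidate regions were called lower and 70 higher. Of 77 family values 2 moved by more than the mutant SD, and of 264 values of named regions 13, none by over 1.5 times and none in sign. Levels carry no read counts, so counting error could not be given.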
